A study of Mus musculus with 15 samples.

Results

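The 8 genes Casp2, Casp6, Casp8, Casp9, Apaf1, Cycs, Xiap and Diablo encode caspases and the proteins that switch them on or hold them in check on the mitochondrial route of cell death. They were read by symbol from the RNA count data, where all 8 were found among 19069 genes, and from the promoter data of 2 chromatin assays, where each has a window of 1000 bases. The cells were NIH3T3, an established line of mouse embryonic fibroblasts, so every value comes from a single line. Irradiated cells received 80 J/m2 of UV-C at 254 nm, were re-fed with medium containing DMSO and were collected after 6 h. Untreated cells received no UV, and whether they were washed, re-fed or given DMSO is not stated, so the handling and the UV cannot be told apart. RNA-seq had 3 irradiated and 3 untreated libraries. FAIRE-seq, which recovers open chromatin, and ChIP-seq for H3K27ac had 2 irradiated and 2 untreated samples each. H3K27ac is an acetylation of histone H3 found at active promoters and enhancers. The samples were pooled by condition before counting. The 1 input DNA sample, listed as receiving no UV, served both assays and both conditions.

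Caspases are proteases that are made as inactive precursors and cut their targets after aspartate residues. When the outer membrane of mitochondria is breached, cytochrome c (the product of Cycs) enters the cytosol and binds APAF1, which assembles into a wheel called the apoptosome and activates caspase-9. Initiator caspases then cut executioner caspases, XIAP binds and blocks caspases, and Smac, the product of Diablo, leaves the mitochondria with cytochrome c and displaces XIAP. These steps act mostly on proteins that are already present, and the assays here measured RNA and chromatin and not protein or caspase activity.

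The RNA libraries held 14211528 to 22032701 counts. Irradiated replicate 1 stood apart: the chi-square per degree of freedom of its counts was 44.4 against irradiated replicate 2 and 42.3 against replicate 3, and 4.62 between the other two. Among untreated libraries replicate 1 stood apart, at 35.5 against replicate 2 and 33.0 against replicate 3, with 14.1 between those. Lars2, the gene of the mitochondrial leucyl-tRNA synthetase, took 5582, 1257 and 1617 CPM of the unscaled totals in irradiated libraries, against 538, 520 and 943 CPM in untreated libraries, with no overlap and the highest value in irradiated replicate 1. Its part in the results was not tested. The labels do not say whether replicates were separate cultures, so each p-value reflects the scatter of these libraries alone, which may be technical. In RNA from whole cultures, fewer cells of a kind and less RNA per cell cannot be told apart. RNA levels here are shares of the RNA sequenced in each library, with no scale per cell. Rises and falls are therefore relative to the other genes, and a change in total RNA per cell was not measured. All 8 fibroblast markers were detected in every library, summing to 20975 to 37581 CPM (read counts scaled to library size) in irradiated and 15963 to 21730 CPM in untreated libraries. The 4 epithelial and 2 endothelial markers summed to at most 5.51 and 3.77 CPM. The 3 leukocyte markers summed to 12.1 to 13.7 CPM in irradiated and 6.01 to 6.63 CPM in untreated libraries, mostly through Cd68, while Ptprc and Cd3e stayed at or under 2.69 and 1.28 CPM. The part of these markers in the results was not tested.

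Among the 8 genes, cytochrome c RNA was higher in irradiated cells and the RNAs of 3 caspases were lower. All 8 had enough counts to test. In edgeR's quasi-likelihood test with Benjamini-Hochberg adjustment over 14925 genes and a threshold of 0.05, 1 of the 8 rose (12.5%, against 7.7% of all tested genes) and 3 fell (37.5%, against 12.4%). Their median log2 fold change of irradiated over untreated was −0.52, against −0.01 over all tested genes. For 6 of the 8 every irradiated library lay on one side of every untreated one (33.9% of all tested genes), 1 higher (16.6%) and 5 lower (17.3%). Without irradiated replicate 1, 5 of the 8 fell (18.3% of all genes in that fit), and without untreated replicate 2, 2 rose (12.5%) and 2 fell (7.49%). In each of the fits without irradiated replicate 2, irradiated replicate 3 or untreated replicate 3, 2 fell. Of all genes in those fits 9.56%, 7.31% and 10.5% fell. Scaled by library totals alone, which moved the median of all tested genes to −0.24, 5 fell (25.1% of all) and 1 rose (6.06%).

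**Figure D1:**
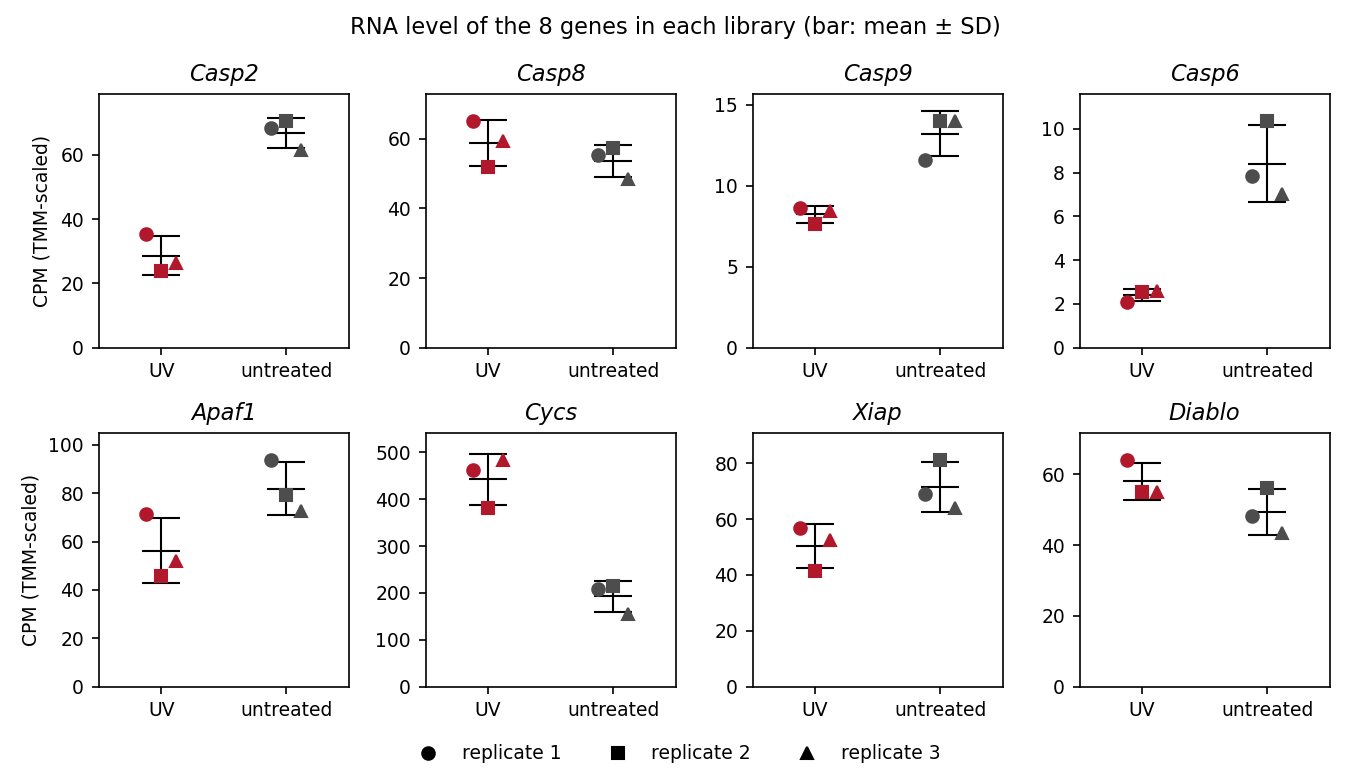
RNA level in CPM, on TMM-scaled library sizes and an axis from 0, of each of the 8 genes in the 3 irradiated (UV) and 3 untreated libraries, with a marker shape per replicate number and bars for the mean ± SD. The groups are apart for Casp2, Casp9, Casp6, Apaf1, Cycs and Xiap and overlap for Casp8 and Diablo.

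Of the initiator caspases, Casp2 and Casp9 fell and Casp8 did not pass the test. Casp2, which encodes a caspase activated on the PIDDosome after DNA damage and faulty cell division, was at 35.4, 24.0 and 26.4 CPM in irradiated libraries, against 68.5, 70.7 and 61.5 CPM in untreated libraries. The highest irradiated library lay well under the lowest untreated one. Its log2 fold change was −1.22 ± 0.19 (SE, adjusted p = 0.000155), a level of 42.8% of untreated, and it kept its call in all 12 alternative fits. Casp9, which encodes the caspase that the apoptosome activates, was at 8.60, 7.61 and 8.46 CPM in irradiated libraries, against 11.6, 14.0 and 14.0 CPM in untreated libraries. The groups did not overlap, and the irradiated values were close together. Its log2 fold change was −0.68 ± 0.19 (adjusted p = 0.0143). This call was the least firm of the 4: it was lost without irradiated replicate 2 or 3 (adjusted p = 0.0563 and 0.0824), without untreated replicate 2 or 3 (adjusted p = 0.0643 and 0.0688), with genes of low count kept in (adjusted p = 0.0537) and in DESeq2's Wald test (adjusted p = 0.0558). Casp8, which encodes the initiator caspase recruited to death receptors, was at 65.2, 52.0 and 59.2 CPM in irradiated libraries, against 55.3, 57.3 and 48.5 CPM in untreated libraries. The groups overlapped, and the log2 fold change of 0.13 ± 0.18 (adjusted p = 0.779) has a 95% interval of −0.24 to 0.50 (all 95% intervals of a fold change are from the fit and unadjusted). With library totals alone its value was −0.11.

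Casp6, the executioner caspase among the 8, whose product cuts nuclear lamins, fell furthest. It was at 2.10, 2.56 and 2.61 CPM in irradiated libraries, against 7.83, 10.4 and 7.00 CPM in untreated libraries. These levels rest on 34, 38 and 45 counts in irradiated libraries and on 151, 228 and 183 counts in untreated libraries, the lowest of the 8 genes. Every irradiated library was under every untreated one by more than the spread within either group. The log2 fold change was −1.79 ± 0.26 (adjusted p = 8.80e-05), a level of 28.9% of untreated, and the call held in all 12 alternative fits, with values of −2.003 to −1.49. Casp6 had the smallest p of the 8 genes and ranked 363 by p among the 14925 tested genes.

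Of the genes for the apoptosome itself, Cycs rose and Apaf1 did not pass the test. Cycs, which encodes cytochrome c, the electron carrier of the respiratory chain that also triggers apoptosome assembly, was at 462, 381 and 484 CPM in irradiated libraries, against 208, 214 and 155 CPM in untreated libraries. All irradiated libraries were higher, with a gap wider than the spread within either group. The log2 fold change was 1.20 ± 0.21 (adjusted p = 0.000582), a 2.30-fold rise, and the call held in all 12 alternative fits (0.97 to 1.40). Mammalian genomes hold many processed pseudogenes of cytochrome c, and how reads shared with them were counted is not given in the sources used here, so its counts are uncertain to that extent. Apaf1, which encodes the scaffold of the apoptosome, was at 71.3, 45.7 and 51.8 CPM in irradiated libraries, against 93.8, 79.3 and 72.5 CPM in untreated libraries. The groups did not overlap, but irradiated replicate 1 lay just under untreated replicate 3. The log2 fold change of −0.54 ± 0.20 did not pass the test (adjusted p = 0.067, 95% interval −0.96 to −0.12). It passed without irradiated replicate 1 (−0.76, adjusted p = 0.000367), when scaled by library totals (−0.79, adjusted p = 0.00108) and when genes had to reach 1 CPM in 3 libraries (−0.55, adjusted p = 0.0329). In the other fits that left out 1 library Apaf1 did not pass. Its adjusted p there ran from 0.0617 without untreated replicate 3 to 0.341 without irradiated replicate 3.

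The caspase inhibitor and its antagonist stood on opposite sides of 0, neither past the threshold. Xiap, which encodes an inhibitor that binds caspases directly, was at 56.7, 41.4 and 52.6 CPM in irradiated libraries, against 69.0, 81.2 and 63.9 CPM in untreated libraries. The groups did not overlap. Its log2 fold change was −0.51 ± 0.19 (adjusted p = 0.066, 95% interval −0.90 to −0.11), and it passed without irradiated replicate 1 (−0.62, adjusted p = 0.00448), when scaled by library totals (−0.75, adjusted p = 0.000431) and with the 1 CPM filter (−0.51, adjusted p = 0.025). In the other fits that left out 1 library Xiap did not pass. Its adjusted p there ran from 0.05002 without untreated replicate 3 to 0.245 without irradiated replicate 3. Diablo, which encodes Smac, was at 64.1, 55.0 and 55.1 CPM in irradiated libraries, against 48.1, 56.2 and 43.5 CPM in untreated libraries. Untreated replicate 2 lay among the irradiated libraries, and the other 2 untreated ones lay under all of them. The log2 fold change was 0.24 ± 0.18 (adjusted p = 0.455, 95% interval −0.14 to 0.61), and it passed without untreated replicate 2 (0.46, adjusted p = 0.0486).

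**Figure D2:**
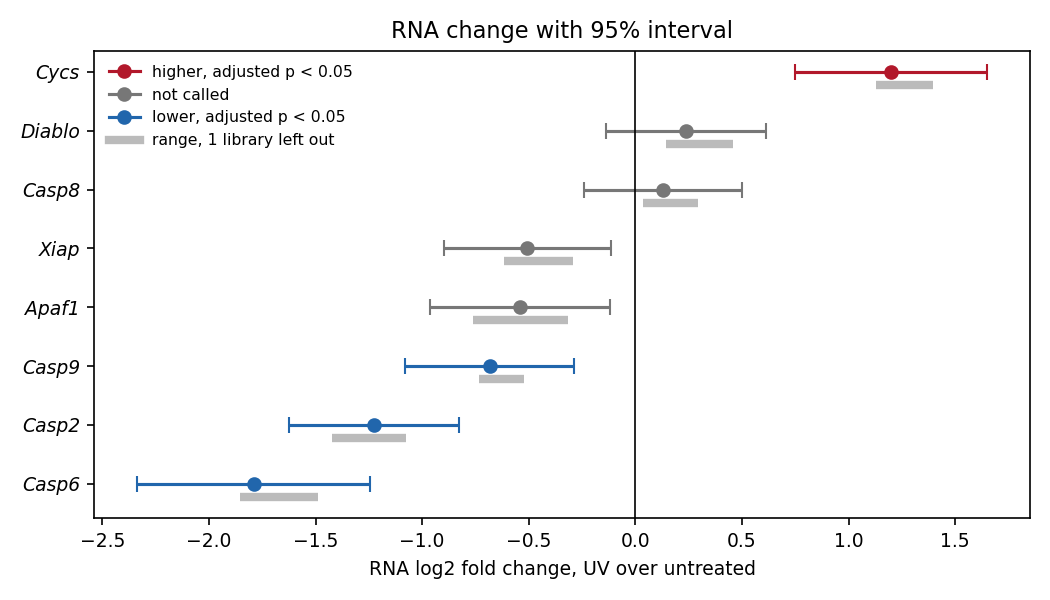
RNA log2 fold change of irradiated over untreated cells for the 8 genes (points), with the 95% interval of the fit (bars) and the range over the fits that leave out 1 library (grey bands). Cycs is right of 0, Casp9, Casp2 and Casp6 are left of 0, and Apaf1 and Xiap have intervals left of 0 but no call after adjustment over all genes.

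Ratios of 2 genes within a library do not depend on how libraries are scaled. The log2 ratio of Diablo counts to Xiap counts was 0.18, 0.41 and 0.07 in irradiated libraries, against −0.52, −0.53 and −0.56 in untreated libraries, so that it was higher by 0.75 on average and the groups did not overlap. For Cycs to Apaf1 the log2 ratio was 2.69, 3.06 and 3.22 in irradiated libraries, against 1.15, 1.43 and 1.10 in untreated libraries, a difference of 1.77 with no overlap. For the other 3 ratios computed, the groups overlapped. Apaf1 to Xiap averaged 0.15 ± 0.18 in irradiated and 0.20 ± 0.24 in untreated libraries (log2 ratio, mean ± SD, n = 3 each), and Casp9 to Apaf1 averaged −2.75 ± 0.26 in irradiated and −2.63 ± 0.34 in untreated libraries. Casp9 to Xiap averaged −2.60 ± 0.14 in irradiated and −2.43 ± 0.21 in untreated libraries. These ratios are given as a description, with no test, since 3 against 3 cannot give an exact p under 0.1. How often the ratios of other gene pairs do not overlap was not computed. Of all single tested genes 33.9% did not overlap.

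The authors' deposited table of RNA changes, which lists 2068 genes with adjusted p-values up to 0.0999, holds 3 of the 8 genes. In the authors' deposited table the log2 fold change was 1.20 for Cycs, −1.21 for Casp2 and −1.79 for Casp6, with adjusted p-values of 7.34e-05, 0.00036 and 0.000364. Casp9 is not among the genes it lists.

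The genes whose RNA followed Casp6 most closely over the 6 libraries were taken from 9624 other genes averaging 5 CPM or more. They were Hist1h2af, a core histone gene of a family of near-identical copies (Pearson r = 0.998 on log2 CPM), Cdkn1b, which encodes the cyclin-dependent kinase inhibitor p27 (0.994), 9930021J03Rik (0.994), Clp1, which encodes an RNA kinase of pre-mRNA and tRNA processing (0.994), and Dhx32, which encodes a helicase-like protein (0.994). With 6 libraries in 2 groups, these points share the contrast between the groups, and the values are a description only. Cdkn1b was at 35.3 ± 2.99 CPM in irradiated and 96.9 ± 14.6 CPM in untreated libraries (mean ± SD, n = 3 each).

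Around the 8 genes, a list of 35 further genes of caspase control and apoptotic execution was read in the same fit. Of these, 33 had enough counts to test, and only Casp1 and the testis cytochrome c gene Cyct did not. Of the 33, 5 rose (15.2%, against 7.7% of all tested genes), 7 fell (21.2%, against 12.4%) and 21 did not pass, at a median log2 fold change of 0.01. Without irradiated replicate 1, 3 rose (7.62% of all genes in that fit) and 12 fell (18.3%), and without irradiated replicate 3, 3 rose (3.75%). Without untreated replicate 2, 3 fell (7.49%), and without untreated replicate 3, 4 fell (10.5%). With library totals alone 13 fell (25.1%). Lrdd (now Pidd1), which encodes the scaffold of the PIDDosome that activates caspase-2, rose to 28.0, 10.8 and 14.6 CPM in irradiated libraries, against 6.94, 5.005 and 6.66 CPM in untreated libraries (log2 fold change 1.52 ± 0.28, adjusted p = 0.00076). Irradiated replicate 1 was the highest of these, and the groups did not overlap. Cradd, the adaptor that joins that scaffold to caspase-2, was also past the threshold, at −0.75 (adjusted p = 0.048).

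Birc2 and Birc3, which encode the cellular inhibitor of apoptosis proteins, were lower by log2 fold changes of −0.81 ± 0.18 (adjusted p = 0.00392) and −0.98 ± 0.24 (adjusted p = 0.0062). Birc2 averaged 21.3 ± 3.41 CPM in irradiated and 37.2 ± 4.98 CPM in untreated libraries, and Birc3 8.58 ± 2.02 CPM in irradiated and 16.9 ± 5.04 CPM in untreated libraries. The giant relative Birc6 was higher, at 0.72 ± 0.24 (adjusted p = 0.0376). Leaving out untreated replicate 2 or 3 ended the Birc3 call (adjusted p up to 0.165), and so ended that of the adaptor gene Fadd (−0.99 ± 0.23, adjusted p = 0.00426, and up to 0.0598 in those fits). Bid, which encodes the protein that caspase-8 cuts to reach the mitochondria, was at 4.70, 4.24 and 4.23 CPM in irradiated libraries, against 20.4, 26.1 and 24.0 CPM in untreated libraries. That was the largest fall of the 33, with a log2 fold change of −2.42 ± 0.19 (adjusted p = 2.13e-07). Dffa, which encodes the inhibitor of the caspase-activated nuclease, fell by 1.02 ± 0.23 on the log2 scale (adjusted p = 0.00337).

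On the other side, Bax, which encodes a pore former of the outer mitochondrial membrane, rose to 85.5 ± 20.1 CPM in irradiated libraries, against 47.6 ± 2.55 CPM in untreated libraries (log2 fold change 0.84 ± 0.19, adjusted p = 0.00429). Sept4 (now Septin4), a gene with a splice form that binds XIAP in human cells, rose by 1.49 ± 0.28 (adjusted p = 0.00102).

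**Figure D3:**
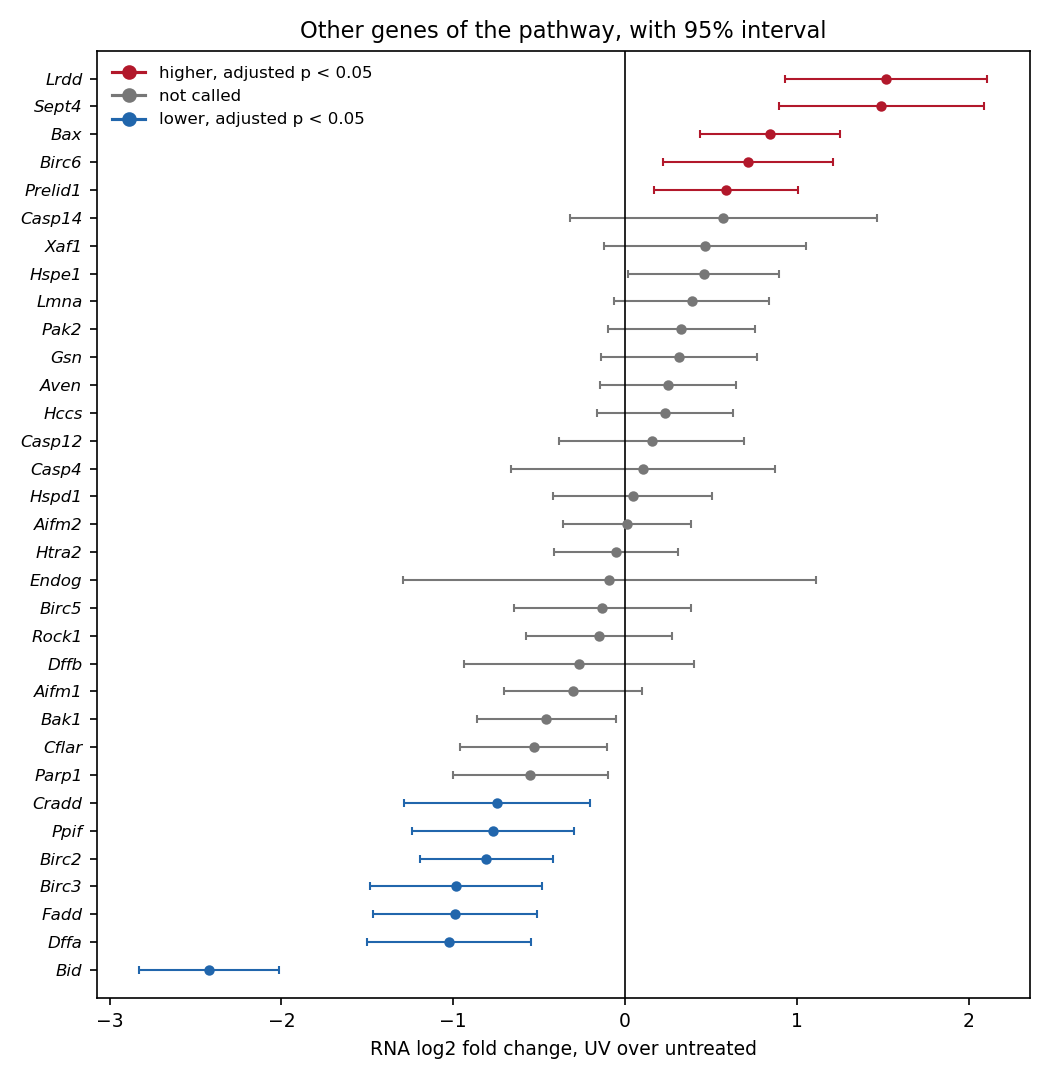
RNA log2 fold change of irradiated over untreated cells with the 95% interval of the fit for the 33 tested genes of the further list, in order of their fold change. The 5 called higher are Lrdd, Sept4, Bax, Birc6 and Prelid1, and the 7 called lower run from Cradd to Bid.

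Promoter stretches are shown for the 6 genes whose RNA passed the test or whose window differed by at least 1 in a chromatin assay. Each is the 250 bases before the start site in RefSeq on the build GRCm38.p6, 5′ to 3′ on the gene's strand, and all 8 genes had an entry. The deposited windows are on mm9 and their position relative to the start site is not stated, so the stretches show the start-site sequence and not the exact window. Capitals mark matches, on either strand, to the motifs named after them.
Casp2, chr6:42264735-42264984, plus strand: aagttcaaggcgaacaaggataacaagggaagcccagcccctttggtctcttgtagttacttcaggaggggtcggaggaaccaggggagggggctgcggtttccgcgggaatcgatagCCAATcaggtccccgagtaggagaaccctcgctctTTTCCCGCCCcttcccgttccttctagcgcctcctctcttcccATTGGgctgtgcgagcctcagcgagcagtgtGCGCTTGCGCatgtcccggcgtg
Casp8, chr1:58802252-58802501, plus strand: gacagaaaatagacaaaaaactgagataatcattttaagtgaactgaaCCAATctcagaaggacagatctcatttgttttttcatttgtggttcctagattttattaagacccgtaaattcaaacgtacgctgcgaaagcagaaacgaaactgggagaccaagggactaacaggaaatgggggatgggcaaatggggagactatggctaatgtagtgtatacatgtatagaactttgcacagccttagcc
Casp9, chr4:141793362-141793611, plus strand: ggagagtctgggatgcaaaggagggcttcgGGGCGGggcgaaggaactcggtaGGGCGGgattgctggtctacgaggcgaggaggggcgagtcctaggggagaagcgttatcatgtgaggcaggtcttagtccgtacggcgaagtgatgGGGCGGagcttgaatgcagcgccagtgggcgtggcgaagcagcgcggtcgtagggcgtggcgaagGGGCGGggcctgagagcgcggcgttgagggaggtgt
Apaf1, chr10:91082744-91082993, minus strand: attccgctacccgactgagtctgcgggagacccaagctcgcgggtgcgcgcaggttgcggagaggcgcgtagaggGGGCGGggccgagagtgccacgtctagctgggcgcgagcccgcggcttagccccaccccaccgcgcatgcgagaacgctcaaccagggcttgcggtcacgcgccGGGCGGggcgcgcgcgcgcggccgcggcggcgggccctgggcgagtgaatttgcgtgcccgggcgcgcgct
Casp6, chr3:129901165-129901414, plus strand: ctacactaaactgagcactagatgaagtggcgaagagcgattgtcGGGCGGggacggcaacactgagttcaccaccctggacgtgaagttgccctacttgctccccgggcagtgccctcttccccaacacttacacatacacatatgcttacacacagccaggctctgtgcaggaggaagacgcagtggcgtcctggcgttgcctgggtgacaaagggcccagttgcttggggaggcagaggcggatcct
Cycs, chr6:50566570-50566819, minus strand: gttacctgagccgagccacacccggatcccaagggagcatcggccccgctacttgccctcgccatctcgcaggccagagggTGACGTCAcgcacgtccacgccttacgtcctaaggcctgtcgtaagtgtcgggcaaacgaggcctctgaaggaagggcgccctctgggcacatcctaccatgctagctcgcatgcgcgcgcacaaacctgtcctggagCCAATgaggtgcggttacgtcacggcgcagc

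Of the 6 stretches shown, that of Casp8 has the fewest CpG pairs. It holds 39.6% G and C and 5 CpG pairs, against 60.4% and 17 for Casp2, 66% and 25 for Casp9, 75.6% and 42 for Apaf1, 58.4% and 11 for Casp6 and 64% and 23 for Cycs. The median over 32851 RefSeq promoters of the same length was 52.4% and 6. The motifs searched, on both strands, were that of NRF1, TTTCCCGC, TTTGGCGC and TTTCGCGC of E2F, TGANTCA of AP-1, TGACGTCA of CREB-type factors (the CRE), GGGCGG of SP1, CCAAT, and TATAAA. Cycs held the CRE from 169 to 162 bases before its start, a motif found in 1.55% of all promoters. Casp2 held the NRF1 motif from 23 to 14 bases before its start (in 3.74% of all promoters) and an E2F motif from 97 to 90 (1.53%), which overlaps an SP1 match. Casp9 held 4 SP1 matches, Apaf1 held 2 and Casp2 and Casp6 held 1 each, a motif found in 32.7% of all promoters. The CCAAT letters in Casp2, Casp8 and Cycs occur in 33.8% of all promoters. The AP-1 letters, found in 6.75% of all promoters, were in none of the 10 RefSeq promoters of the 8 genes. These are matches of letters, and binding was not measured.

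All 8 promoter windows had less FAIRE signal in irradiated than in untreated cells by the deposited values, while with quantile normalization Cycs was higher by 0.25 and Diablo by 0.17. With that normalization Casp8 differed by −0.88 and Casp9 by −0.64. The values are the authors' log2 enrichments of pooled reads over input, so replicate error is unknown and nothing was tested. Over the 14925 promoters of tested genes 76.7% were lower in irradiated cells and the median difference was −0.27, against −0.52 over the 8 genes. A difference of at least 1 was taken as a loss or gain. Of the 8 promoters 2 lost FAIRE signal by that measure, against 1.39% of the promoters of tested genes (1.05% of all 21881 promoters), and none gained, against 0.0067% (0.00457% of all). After the median difference of all promoters was subtracted, none of the 8 passed, against 0.469%. At a limit of 0.58, 4 lost FAIRE signal, against 18.6%.

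The initiator caspase promoters held the 3 largest FAIRE differences of the 8. At Casp9, whose window had 35 reads in the irradiated and 105 in the untreated pool with 20 input reads, the log2 enrichment was 0.94 in irradiated and 2.05 in untreated cells. The difference was −1.11, at percentile 0.489 of all promoters. The read ratio of irradiated to untreated, scaled by the authors' input factors, was 0.415 (exact binomial 95% interval 0.275 to 0.614, for counting error only). At Casp8, 21 and 73 reads gave a log2 enrichment of 0.08 in irradiated and 1.17 in untreated cells, a difference of −1.09 and a read ratio of 0.358 (0.209 to 0.589). At Casp2, 117 and 274 reads gave 1.46 in irradiated and 2.37 in untreated cells, a difference of −0.91 and a ratio of 0.532 (0.425 to 0.663). Scaled instead by all promoter reads, these 3 ratios were 0.54, 0.466 and 0.692, with intervals that stay below 1.

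Apaf1 came next among the FAIRE values, at 1.54 in irradiated and 2.21 in untreated cells, a difference of −0.68 and a read ratio of 0.634 (0.484 to 0.825). Scaled by all promoter reads its interval of 0.629 to 1.07 holds 1. The Cycs promoter stayed among the most open, at 1.89 in irradiated and 2.21 in untreated cells, a difference of −0.32. In the order of FAIRE enrichment over the promoters of tested genes, Cycs lay at percentile 97.9 in irradiated and 94.9 in untreated cells. Casp6, Xiap and Diablo differed by −0.37, −0.28 and −0.27, near the median of the promoters of tested genes, and the read ratio intervals of these 3 and of Cycs hold 1. The Xiap window had 8 reads in the irradiated and 15 in the untreated pool. Its read ratio interval of 0.244 to 1.67 is wide, so this depth limits what could be detected there.

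H3K27ac was higher in irradiated cells at 4 of the 8 promoters and lower at 4, while 55.7% of the promoters of tested genes were lower. The median difference was −0.05 over the 8, against −0.06 over the promoters of tested genes. The 3 initiator caspases and Xiap were lower, and Apaf1, Diablo, Cycs and Casp6 were higher. With the same limit of 1, 1 of the 8 gained, against 2.93% of the promoters of tested genes (2.38% of all promoters), and none lost, against 4.26% (3.43% of all). At a limit of 0.58, 3 gained, against 10.9%, and 1 lost, against 14.5%. The gain was at Apaf1, with 1473 reads in the irradiated and 656 in the untreated pool and 37 input reads. Its log2 enrichment was 5.14 in irradiated and 3.996 in untreated cells, a difference of 1.14 and a read ratio of 2.23 (2.03 to 2.44). Only the Apaf1 window passed, and with quantile normalization its difference was 0.80. The start of a neighbour, Ikbip, lies within 1000 bases of that of Apaf1 in RefSeq. The Ikbip window had an H3K27ac enrichment of 5.69 in irradiated and 4.24 in untreated cells, while Ikbip RNA was at 174 ± 48.4 CPM in irradiated and 173 ± 28.2 CPM in untreated libraries (adjusted p = 0.994).

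Diablo was at 3.02 in irradiated and 2.17 in untreated cells in H3K27ac (0.86, read ratio 1.89, interval 1.55 to 2.32), and its difference of 0.97 with quantile normalization was above that of Apaf1. Cycs was at 4.86 in irradiated and 4.26 in untreated cells (0.60, ratio 1.52, interval 1.38 to 1.68). With quantile normalization the Cycs difference was 0.25. The start of 5430402O13Rik lies within 1000 bases of that of Cycs, and its window was at 4.95 in irradiated and 4.29 in untreated cells in H3K27ac (0.65), and differed by −0.31 in FAIRE. Gm46825 starts within 1000 bases of Casp6. Which gene of such a pair the signal belongs to was not tested. Casp6, at 1.45 in irradiated and 1.23 in untreated cells, had the least acetylation of the 8 in both conditions and a ratio interval of 0.876 to 1.65 that holds 1. Among the lower ones, Casp9 was at 2.47 in irradiated and 3.14 in untreated cells (−0.68, ratio 0.599, interval 0.486 to 0.736). Casp8 was at 2.22 in irradiated and 2.72 in untreated cells (−0.50), Casp2 at 2.11 in irradiated and 2.55 in untreated cells (−0.44), and Xiap at 3.22 in irradiated and 3.55 in untreated cells (−0.33). Their read ratio intervals lie below 1 on both scalings.

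**Figure D4:**
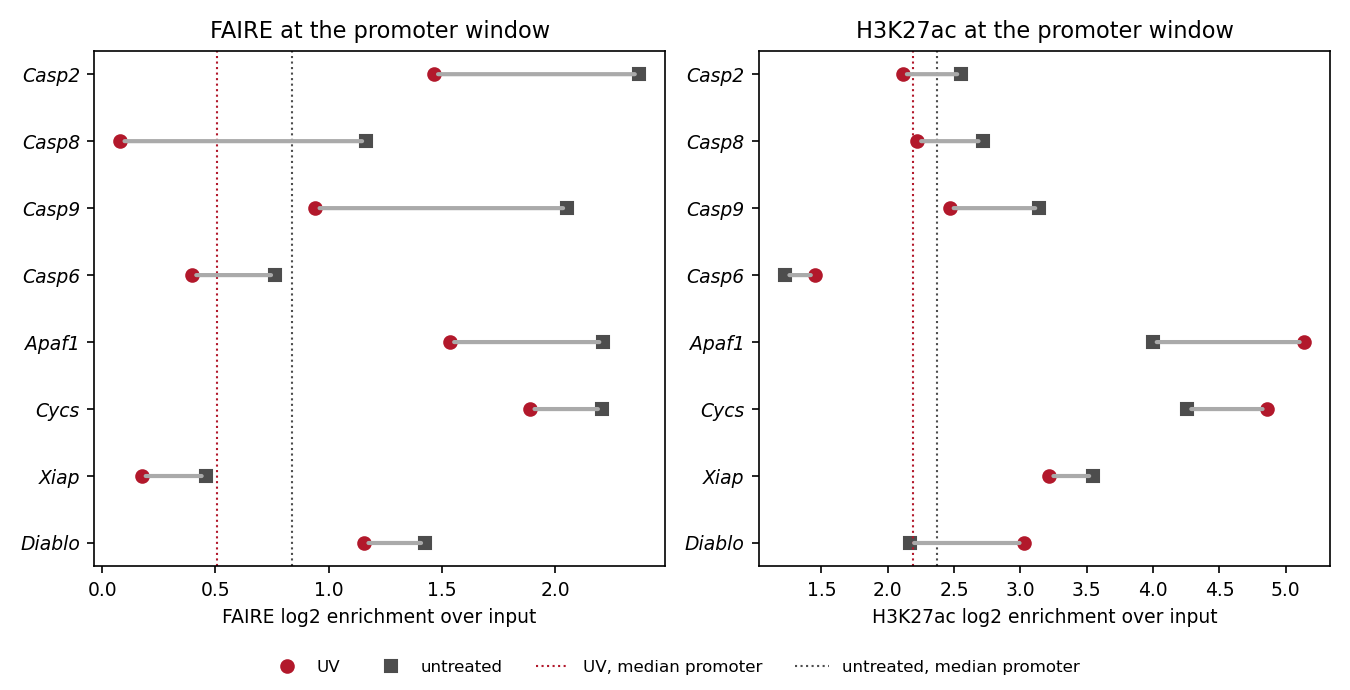
Log2 enrichment over input of FAIRE (left) and H3K27ac (right) at the promoter windows of the 8 genes, with the irradiated pool as circles, the untreated pool as squares, and dotted lines at the median of the promoters of tested genes in each condition. All 8 genes lie lower in FAIRE after UV on this scale (Cycs and Diablo do not with quantile normalization), most at Casp9 and Casp8, while Apaf1, Diablo, Cycs and Casp6 lie higher in H3K27ac.

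The 3 readouts can be set side by side gene by gene. Casp2 and Casp9 were lower in RNA, FAIRE and H3K27ac, and Casp8 was lower in both chromatin readouts with an RNA log2 fold change of 0.13. Cycs was higher in RNA and H3K27ac with a FAIRE difference of −0.32. Apaf1 had an H3K27ac difference of 1.14 beside an RNA log2 fold change of −0.54 that did not pass the test. Xiap was at −0.28 in FAIRE and −0.33 in H3K27ac, with an RNA log2 fold change of −0.51 that did not pass, and Diablo at −0.27 in FAIRE and 0.86 in H3K27ac, with an RNA log2 fold change of 0.24 that did not pass. Casp6 had the largest RNA fall beside an H3K27ac difference of 0.22 and a FAIRE difference of −0.37. Among the further list, the 33 promoters had median differences of −0.39 in FAIRE and 0.05 in H3K27ac. In that list 1 promoter passed the FAIRE limit downward, Birc6 (−1.01), against 1.39% of the promoters of tested genes, and 1 the H3K27ac limit upward, Lrdd (1.60), against 2.93%, both named after their values were seen.

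In RefSeq on GRCm38.p6, Apaf1 overlaps Ikbip and Gm25390, Diablo overlaps B3gnt4 and Mir7647, Casp9 overlaps Cela2a and Casp6 overlaps Gm46825 and Gm40150, and whether the counting used strand is not given in the sources used here, so reads in the shared parts may belong to either gene. B3gnt4 RNA was at 2.26 ± 0.198 CPM in irradiated and 0.602 ± 0.0766 CPM in untreated libraries (log2 fold change 1.89 ± 0.50, adjusted p = 0.0113, and 0.0598 without irradiated replicate 3). Cela2a had too few counts to test.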

How the data were processed

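RNA counts are whole read counts per gene and library as the authors deposited them. The build was mm9 and the tools included MACS2, DESeq2, TopHat and Bowtie 0.12.9, per the submitters' processing notes, which give no roles. Per the file headers, the promoter files give read counts per 1000-base window for the reads of each condition merged, and for the input, and a log2 enrichment deposited by the authors. That enrichment was recomputed as log2 of reads + 16 over scaled input reads + 16, with input scales of 0.528 in irradiated and 0.657 in untreated FAIRE, and 0.712 in irradiated and 0.706 in untreated H3K27ac. Headers that name DMSO were read as irradiated, since the labels' protocol gives DMSO to irradiated cells. The number of columns of another condition, not used here, is 8. Adjusted p-values and log2 fold changes of the authors' deposited table are quoted as theirs.

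The RNA tests used edgeR 4.0.16 under R 4.3.3 (filterByExpr, TMM, glmQLFit, quasi-likelihood F test, Benjamini-Hochberg over 14925 genes). The SE is the size of the fold change over the square root of F. The steps were tested on simulated data. CPM use TMM-scaled library sizes. DESeq2 1.42.0 and other normalizations, filters and left-out libraries were tried as alternatives. Differences of enrichment are irradiated minus untreated. Python 3.11.15, scipy 1.17.1 and matplotlib 3.10.9 served for chromatin and figures. Intervals of read ratios cover counting error only. Peaks were not used here, as the promoter files give no positions that tie a peak to a gene.

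The members and gene lists were chosen with earlier results of these data known. All 8 members were named. Of the further list, up to 8 called genes by smallest p were named, with Birc2 and Birc3 whatever their p. Some genes of that list are not reported here. Birc6, Cradd and Prelid1 were named after their values were seen, and neighbours by position. Genes like Casp6 were the 5 of at least 5 CPM with the highest Pearson r on log2 CPM (prior count 2).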

Additional observations from a re-analysis of the deposited data

How the results depend on the processing

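The calls of Casp2, Casp6 and Cycs and their directions held in the 12 alternative fits. With library totals alone 3739 genes, 5 of the 8 members and 13 of the further list were lower, and the log2 fold change was −0.79 for Apaf1, −0.75 for Xiap, −0.11 for Casp8 and −0.24 for Ikbip. When genes had to reach 1 CPM in 3 libraries 5 members fell (16.4% of all genes in that fit). Apaf1 was then at −0.55 and Xiap at −0.51. Without a filter 3 of the further list rose (4.19% of all genes in that fit). Casp9, at −0.68, then lost its call, as it did in DESeq2's Wald test at −0.66. With a log2 fold change of at least 1 required, 270 genes were higher and 801 lower, and 2 of the further list were higher and 2 lower.

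Leaving out 1 library at a time gave 585 to 1941 genes higher and 1139 to 2849 lower, 1 to 2 members higher and 2 to 5 lower, and 3 to 5 of the further list higher and 3 to 12 lower. The log2 fold change then ran from −0.73 to −0.52 for Casp9, −0.76 to −0.32 for Apaf1, −0.62 to −0.29 for Xiap, 0.14 to 0.46 for Diablo and −0.22 to 0.24 for Ikbip. The causes were not tested.

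Deviations from the group means of same-numbered libraries correlated at 0.155, −0.58 and 0.504, and only number 3 correlated best with its own number. With 3 libraries per group these values cannot decide whether the numbers pair the libraries. With the number as a block 4 members fell, against 13.8% of all genes in that fit. Apaf1 was then at −0.56 (adjusted p = 0.0499) and Ikbip at −0.0097.

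With quantile normalization the FAIRE difference was −0.36 for Casp2, −0.13 for Apaf1 and 0.25 for Cycs, and the H3K27ac difference 0.80 for Apaf1 and 0.25 for Cycs. After centring 0 of the 8 promoters lost FAIRE by at least 1, against 0.469% of the promoters of tested genes. At a limit of 0.58, 4 lost FAIRE (18.6% of the promoters of tested genes), 3 gained H3K27ac (10.9%) and 1 lost it (14.5%). Windows with few reads, such as Xiap in FAIRE, limit what these pools can show.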
